A study of Mus musculus with 12 samples.

Results

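The circadian clock passes its timing to the rest of the genome through a small set of transcription factors that are themselves driven by the core oscillator. Of 33641 genes listed for each sample, 8 such clock output factors were followed here, namely Dbp, Tef, Hlf, Ciart, Bhlhe40, Bhlhe41, Nfil3 and Rora, chosen by gene symbol. All 8 were listed in every sample and all 8 passed the filter for low expression, set at 0.5 TPM (transcript abundance scaled to gene length and library total) on average, which left 12526 genes in the tests. The mice carried the human coding sequence of phospholamban, the small membrane protein that restrains the calcium pump of the sarcoplasmic reticulum, in place of their own at the Pln locus. R14del-PLN hearts had 1 copy of the allele that lacks arginine 14 beside 1 wild-type human copy, whereas WT-PLN hearts had the wild-type human sequence on both chromosomes. All animals were 12 to 14 weeks old and labelled C57BL/6J, and the study's methods describe a hybrid line founded with Sox2-Cre mice, whose Cre is active in the early embryo. Poly(A) RNA of whole left (LV) and right ventricle (RV) was sequenced with 3 samples in each of the 4 groups, LV and RV of WT-PLN and LV and RV of R14del-PLN, and the titles call the R14del-PLN samples KO. Nothing in the labels says that the 3 samples of a group were separate animals, so the p-values measure the spread between these samples. The time of day at which the hearts were taken is not given in the sources used here.

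In the core oscillator, BMAL1 (Arntl) and CLOCK bind E-box elements and switch on the Per, Cry and Nr1d genes, whose products then shut that activity off. The same E-boxes drive Dbp, Tef, Hlf, Ciart, Bhlhe40 and Bhlhe41. DBP, TEF and HLF are PAR bZIP activators that bind D-box elements, and NFIL3 (E4BP4) is a repressor of the same elements. CIART (CHRONO) and the DEC proteins encoded by Bhlhe40 and Bhlhe41 feed back as repressors of CLOCK and BMAL1, while RORA activates Arntl through elements that it shares with the REV-ERB repressors. In the heart these factors are known for relaying time of day to metabolic and ion channel genes.

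The promoters of 7 of the 8 genes were found in the RefSeq table for GRCm38.p6, which spans 250 bases before to 50 bases after each transcription start, and Bhlhe40 was not matched. Both strands of these windows were searched for the E-box CACGTG, the related CACGTT, the D-box in the forms TTATGTAA and TTATGCAA, the ROR element TAGGTCA and the cyclic AMP response element TGACGTCA. An E-box occurred in 7.15% of all 32851 promoters, and 3 or more occurred in 29 of them (0.0883%). The promoter of Ciart was one of these 29, and it is shown whole because Ciart had the largest difference between genotypes of the 8 genes. Its E-boxes, in capitals, begin at -116, -58 and -44 relative to the start (chr3:95882179-95882478, minus strand, printed 5′ to 3′).
Ciart promoter: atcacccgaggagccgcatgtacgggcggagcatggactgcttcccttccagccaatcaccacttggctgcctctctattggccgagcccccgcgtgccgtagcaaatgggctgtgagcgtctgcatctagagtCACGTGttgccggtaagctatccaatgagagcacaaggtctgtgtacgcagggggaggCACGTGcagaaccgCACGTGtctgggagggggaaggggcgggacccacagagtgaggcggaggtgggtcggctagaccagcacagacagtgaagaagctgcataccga

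Tef, Bhlhe41 and Hlf held 1 of the elements searched in each of their windows, and the stretches around them are shown with the element in capitals. Tef had an E-box in each of its 2 promoters, at -127 (chr15:81802534-81802563, plus strand) and at -138 (chr15:81811264-81811293, plus strand). Bhlhe41 had one at -153 (chr6:145865556-145865585, minus strand), and Hlf had a cyclic AMP response element at -9 (chr11:90390907-90390938, minus strand), a motif present in 1.79% of promoters.
Tef, first promoter: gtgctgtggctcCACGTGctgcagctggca
Tef, second promoter: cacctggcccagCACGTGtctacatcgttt
Bhlhe41: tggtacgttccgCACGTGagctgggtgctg
Hlf: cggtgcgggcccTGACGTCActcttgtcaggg

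Nfil3 carried a ROR element, read on the reverse strand as TGACCTA, at -12, against 2.61% of promoters. None of the motifs searched fell in the windows of Dbp and Rora, and no member had a CACGTT or a D-box there. A match says only that these letters are present, and elements farther from the start, such as those in introns, were not searched.

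The deposited values are TPM, which are scaled to gene length and to a fixed total, so the levels of different genes can be compared but the read depth behind them is unknown. Genes above 0 TPM numbered 17924 to 18879 per sample, and ventricular cardiomyocyte markers summed to between 32104 and 48981 TPM and none of them was at 0. The mitochondrially encoded genes made up 44.0% to 47.3% of the total in LV and 48.7% to 52.7% in RV of WT-PLN, 37.3% to 51.2% in LV of R14del-PLN and 51.1% to 54.5% in RV of R14del-PLN. The samples numbered 1 of WT-PLN, one from each ventricle, held 4 Y-linked genes at 0.0159 to 0.191 TPM, whereas the remaining 10 samples held them at 3.03 to 30.6 TPM, although the methods state male mice. RV replicate 3 of R14del-PLN carries run number 143, the other 11 samples 136. Results were also computed without these samples. Pln stood at 1801 ± 85.1 TPM (mean ± SD, n = 3) in LV and 1777 ± 163 in RV of WT-PLN, and at 1630 ± 79.5 in LV and 1727 ± 80.6 in RV of R14del-PLN. Its row does not separate the alleles and so does not check the genotype. In whole tissue, fewer cells of a type and less RNA per cell cannot be told apart.

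Ordered by mean TPM over the 12 samples, Tef (73.9) came first, then Dbp (55.3), Bhlhe40 (13.6), Hlf (9.67), Ciart (8.61), Bhlhe41 (7.47), Nfil3 (5.23) and Rora (4.57). Tef exceeded Dbp in 12 of 12 samples, and Dbp exceeded Bhlhe40 in 12 of 12. Further down, neighbours were less separate, since Hlf exceeded Ciart in 8 of 12 samples and Ciart exceeded Bhlhe41 in 6 of 12. Rora, the lowest, had a mean above that of 68.8% of the 22948 genes with a value above 0 TPM in at least 1 sample, a set that includes genes below the filter. Bhlhe40 and Ciart varied most over the 12 samples, with the highest value 2.92 and 2.85 times the lowest, and Tef varied least at 1.57 times.

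**Figure D1:**
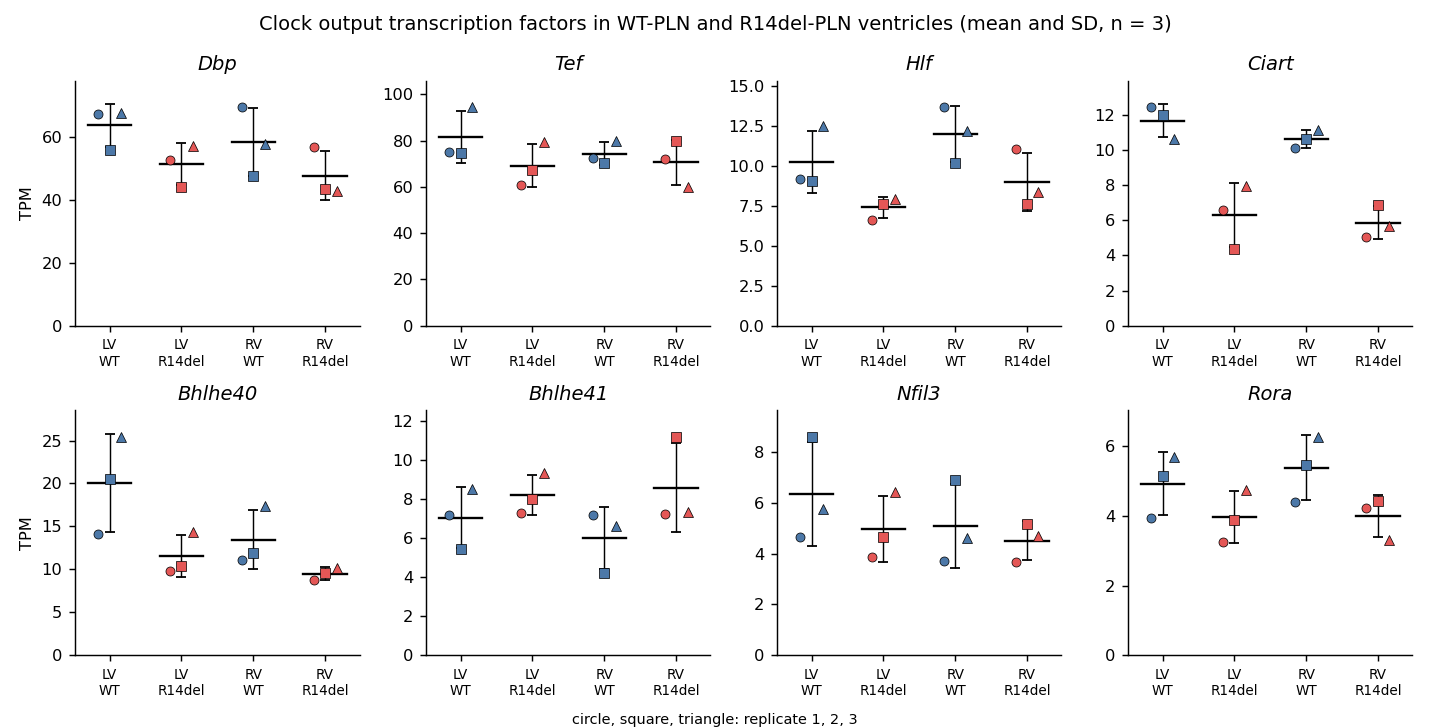
TPM of each of the 8 clock output factors (y axis, linear and starting at 0) in the 4 groups of ventricle and genotype (x axis), with a point for each sample and a bar and line for the group mean and SD (n = 3). The Ciart points of R14del-PLN lie below those of WT-PLN in both ventricles, while those of Tef, Dbp and Nfil3 overlap.

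The first question was whether the R14del-PLN allele goes with a different level of these factors in either ventricle. Ciart was the member that differed most, standing in R14del-PLN hearts at 6.29 ± 1.81 TPM (SD, n = 3) in LV and 5.86 ± 0.929 in RV, against 11.7 ± 0.954 and 10.6 ± 0.50 in WT-PLN. Bhlhe40 came next in LV, at 11.6 ± 2.48 against 20.1 ± 5.67 TPM in LV, and stood at 9.5 ± 0.726 against 13.4 ± 3.43 in RV. Hlf, Dbp, Tef, Nfil3 and Rora had lower means in R14del-PLN of both ventricles, and Bhlhe41 had higher ones, with 8.59 ± 2.26 against 6.01 ± 1.58 TPM in RV, where its fold change was slightly larger than that of Bhlhe40. By limma on log2(TPM + 1), where a call needed a change of 1.5-fold or more and a p no higher than 0.05 after Benjamini-Hochberg adjustment over the 12526 genes, 0 of the 8 members were called in LV, where 0.519% of all tested genes were, and 0 of 8 in RV, where 0.271% were. At an unadjusted p under 0.05 there were 3 members in LV (9.6% of all genes) and 3 in RV (6.22%). The sign was negative for 7 of 8 members in each ventricle, which compares with 71.7% of all genes in LV and 50.9% in RV. The median log2 fold change of the 8 was -0.30 in LV, where that of all genes was -0.09, and -0.32 in RV, where that of all genes was -0.0034.

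The repressors that act back on CLOCK and BMAL1 are taken first. Ciart (chr3:95878503-95882251, minus strand) measured 12.4, 12.0 and 10.6 TPM in LV replicates 1 to 3 of WT-PLN and 6.56, 4.36 and 7.96 TPM in those of R14del-PLN. In RV it measured 10.1, 10.6 and 11.1 TPM in WT-PLN and 5.04, 6.87 and 5.67 TPM in R14del-PLN. All 6 R14del-PLN values thus lay below all 6 WT-PLN values, and the lowest was LV replicate 2. Within a single ventricle, R14del-PLN lay wholly below WT-PLN for 8.47% of genes in LV and 5.79% in RV. No share is given for a separation that spans both ventricles at once. Because same-numbered WT-PLN samples were taken as paired, the 6 WT-PLN values of Ciart do not count as independent. The log2 fold change was -0.83 (SE 0.17, 95% interval -1.20 to -0.46) in LV with a limma adjusted p of 0.0575, and -0.77 (SE 0.17, -1.14 to -0.40) in RV with an adjusted p of 0.104. By unadjusted p (0.000326 and 0.00059) it ranked 71 among the 12526 genes in each ventricle. Neither difference passed the threshold. Over the alternatives tried the adjusted p ranged from 0.0224 to 0.224 in LV and from 0.0360 to 0.382 in RV. In LV it fell to 0.0243 without LV replicate 3 of R14del-PLN (log2 fold change -0.99), the sample with the lowest mitochondrial share, to 0.0441 without RV replicate 2 of R14del-PLN, and to 0.0224 with mitochondrially encoded genes left out of the total. In RV it fell to 0.0417 without LV replicate 2 of R14del-PLN and to 0.0478 without the mitochondrially encoded genes, and it was highest, at 0.382, without RV replicate 2 of WT-PLN. Without both WT-PLN samples numbered 1, Ciart had adjusted p-values of 0.0887 in LV and 0.153 in RV.

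Bhlhe40 encodes DEC1, a basic helix-loop-helix repressor that is also induced by hypoxia and other stimuli (chr6:108660629-108666925, plus strand). It stood at 14.1, 20.6 and 25.5 TPM in LV of WT-PLN and at 9.85, 10.4 and 14.4 TPM in LV of R14del-PLN. The LV ranges met, since replicate 3 of R14del-PLN was just above replicate 1 of WT-PLN. RV values were 11, 11.9 and 17.4 TPM in WT-PLN and 8.71, 9.63 and 10.1 TPM in R14del-PLN, with no overlap. The log2 fold change of -0.73 (SE 0.21) in LV had a limma adjusted p of 0.223, and that of -0.44 (SE 0.21) in RV one of 0.830. Without LV replicate 1 of WT-PLN the LV difference was -0.94 with an adjusted p of 0.0475, and without both WT-PLN samples numbered 1 the adjusted p was 0.0352. Without LV replicate 3 of WT-PLN, its highest sample, the LV difference was instead -0.54 (adjusted p = 0.705), and without RV replicate 3 of WT-PLN the RV difference was -0.25 (adjusted p = 0.994). Leaving out LV replicate 2 of WT-PLN or LV replicate 1 or 2 of R14del-PLN gave adjusted p-values of 0.580, 0.624 and 0.615 in LV.

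Bhlhe41 encodes DEC2, the close relative of DEC1 (chr6:145858243-145865558, minus strand). Its LV values were 7.21, 5.43 and 8.54 TPM in WT-PLN and 7.30, 8.01 and 9.34 TPM in R14del-PLN, which overlapped. In RV, WT-PLN samples measured 7.18, 4.21 and 6.64 TPM and R14del-PLN samples 7.22, 11.2 and 7.35 TPM. The RV ranges were barely separate, with replicate 1 of each genotype at almost the same level, and replicate 2 was the lowest in WT-PLN and the highest in R14del-PLN. The log2 fold changes were 0.21 (SE 0.21, adjusted p = 0.825 by limma) in LV and 0.45 (SE 0.21, adjusted p = 0.796) in RV. Without RV replicate 2 of WT-PLN the RV value was 0.25, and without RV replicate 2 of R14del-PLN it was 0.27.

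In each sample the level of Bhlhe41 was divided by that of Bhlhe40, a comparison chosen after the values were seen and so given without a test. The ratio was 0.264 to 0.509 in LV and 0.353 to 0.650 in RV of WT-PLN, and 0.649 to 0.767 in LV and 0.724 to 1.16 in RV of R14del-PLN. Within each ventricle the R14del-PLN ratios were all above those of WT-PLN.

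The PAR bZIP activators and their antagonist form the next group. Hlf (chr11:90336536-90390895, minus strand) measured 9.18, 9.04 and 12.5 TPM in LV of WT-PLN and 6.65, 7.64 and 7.93 TPM in LV of R14del-PLN, with no overlap. In RV it measured 13.7, 10.2 and 12.2 TPM in WT-PLN and 11, 7.61 and 8.35 TPM in R14del-PLN, where replicate 1 of R14del-PLN exceeded replicate 2 of WT-PLN. The log2 fold changes were -0.41 (SE 0.16) in LV and -0.39 (SE 0.16) in RV, with unadjusted limma p-values of 0.0272 and 0.0349 and adjusted ones of 0.429 and 0.730.

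Dbp (chr7:45705088-45710203, plus strand), strongly rhythmic in many tissues, stood at 67.5, 55.9 and 67.8 TPM in LV of WT-PLN and 52.7, 44.2 and 57.3 TPM in LV of R14del-PLN. RV samples measured 69.5, 47.7 and 57.9 TPM in WT-PLN and 56.7, 43.6 and 42.7 TPM in R14del-PLN. The groups overlapped in both ventricles, and replicate 2 of WT-PLN was the lowest of its group in each. Its log2 fold changes of -0.31 (SE 0.16) and -0.28 (SE 0.16) had limma adjusted p-values of 0.593 and 0.959. The 3′ end of Dbp overlaps Sphk2, a sphingosine kinase gene on the other strand with a mean of 4.27 TPM, and whether the counting used strand is not given in the sources used here. Genes on the other strand also overlap Ciart, Bhlhe40, Bhlhe41, Tef and Rora in GENCODE M21, but none of these has a TPM value here. The one at Ciart, C920021L13Rik, spans the whole gene.

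Tef (chr15:81802421-81826863, plus strand) gave 75.1, 74.7 and 94.4 TPM in LV of WT-PLN and 61.0, 67.2 and 79.4 TPM in LV of R14del-PLN. In RV it gave 72.6, 70.4 and 79.8 TPM in WT-PLN and 72.1, 79.7 and 60.1 TPM in R14del-PLN. The groups overlapped in both ventricles, with log2 fold changes of -0.23 (SE 0.14, 95% interval -0.54 to 0.08) in LV and -0.08 (SE 0.14, -0.39 to 0.23) in RV. These intervals stayed inside a 1.5-fold change in either direction.

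Nfil3 (chr13:52967209-52981073, minus strand) measured 4.65, 8.61 and 5.77 TPM in LV of WT-PLN, 3.85, 4.65 and 6.42 TPM in LV of R14del-PLN, 3.69, 6.92 and 4.62 TPM in RV of WT-PLN and 3.69, 5.18 and 4.69 TPM in RV of R14del-PLN. Replicate 2 of WT-PLN was the highest of its group in each ventricle, the reverse of Dbp, and all groups overlapped. The log2 fold changes were -0.29 (SE 0.23) in LV and -0.11 (SE 0.23) in RV, with limma adjusted p-values of 0.766 and 1. With an SE of 0.23 Nfil3 was the least precisely measured member, and its LV interval reached from -0.79 to 0.22.

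The 3 activators were also added up in each sample, a sum over transcripts whose proteins bind the same element. Tef made up 53.4% of this sum on average over the 12 samples, Dbp 39.7% and Hlf 6.93%. The sum was 155 ± 17.8 TPM (SD, n = 3) in LV and 145 ± 14.5 in RV of WT-PLN, and 128 ± 14.4 in LV and 127 ± 14.7 in RV of R14del-PLN. The sum was 16.2 to 42.2 times the level of Nfil3, with means of 26.4 times in LV of WT-PLN and 26.5 times in LV of R14del-PLN.

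**Figure D2:**
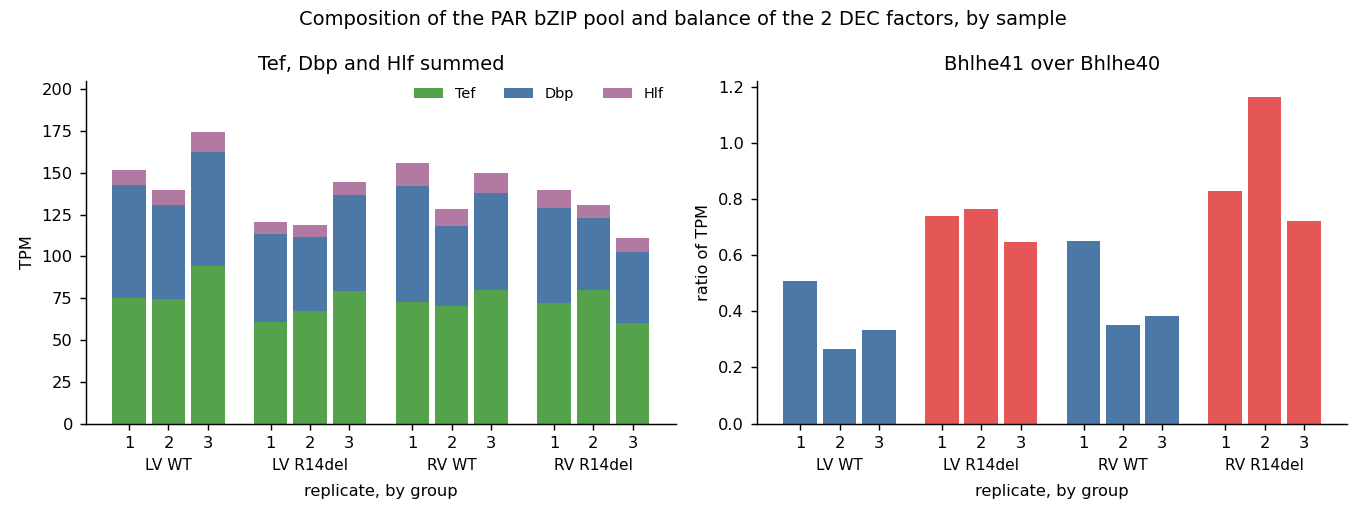
Summed TPM of the PAR bZIP activators and ratio of Bhlhe41 to Bhlhe40 in each sample, by group of ventricle and genotype. The activator sum is made up mostly of Tef and Dbp in every sample. The Bhlhe41 to Bhlhe40 ratio was chosen after the values were seen. It runs from 0.264 to 0.509 in LV of WT-PLN and from 0.649 to 0.767 in LV of R14del-PLN. In RV it runs from 0.353 to 0.650 in WT-PLN and from 0.724 to 1.16 in R14del-PLN.

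Rora (chr9:68653786-69388246, plus strand), the activator of Arntl, was measured at 3.93, 5.13 and 5.71 TPM in LV of WT-PLN and 3.25, 3.88 and 4.76 TPM in LV of R14del-PLN. Its RV values were 4.41, 5.48 and 6.28 TPM in WT-PLN and 4.24, 4.43 and 3.30 TPM in R14del-PLN. The ranges overlapped in LV, and in RV by a single pair, replicate 2 of R14del-PLN just above replicate 1 of WT-PLN. The log2 fold changes were -0.25 (SE 0.17, adjusted p = 0.701 by limma) in LV and -0.35 (SE 0.17, adjusted p = 0.823) in RV.

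In LV the genotypes were fully separate for 2 of 8 members, Hlf and Ciart, both lower in R14del-PLN, where 8.47% of all tested genes were separated in that direction. In RV this held for 3 of 8, with Ciart and Bhlhe40 below WT-PLN (5.79% of all genes) and Bhlhe41 above (5.19%). Without RV replicate 3 of R14del-PLN, the sample with another run number, 0 members were called in RV by limma and the log2 fold changes were -0.75 for Ciart (adjusted p = 0.319), -0.48 for Bhlhe40, 0.54 for Bhlhe41, -0.35 for Hlf, -0.25 for Rora, -0.21 for Dbp, -0.14 for Nfil3 and 0.03 for Tef, whose sign had been negative.

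**Figure D3:**
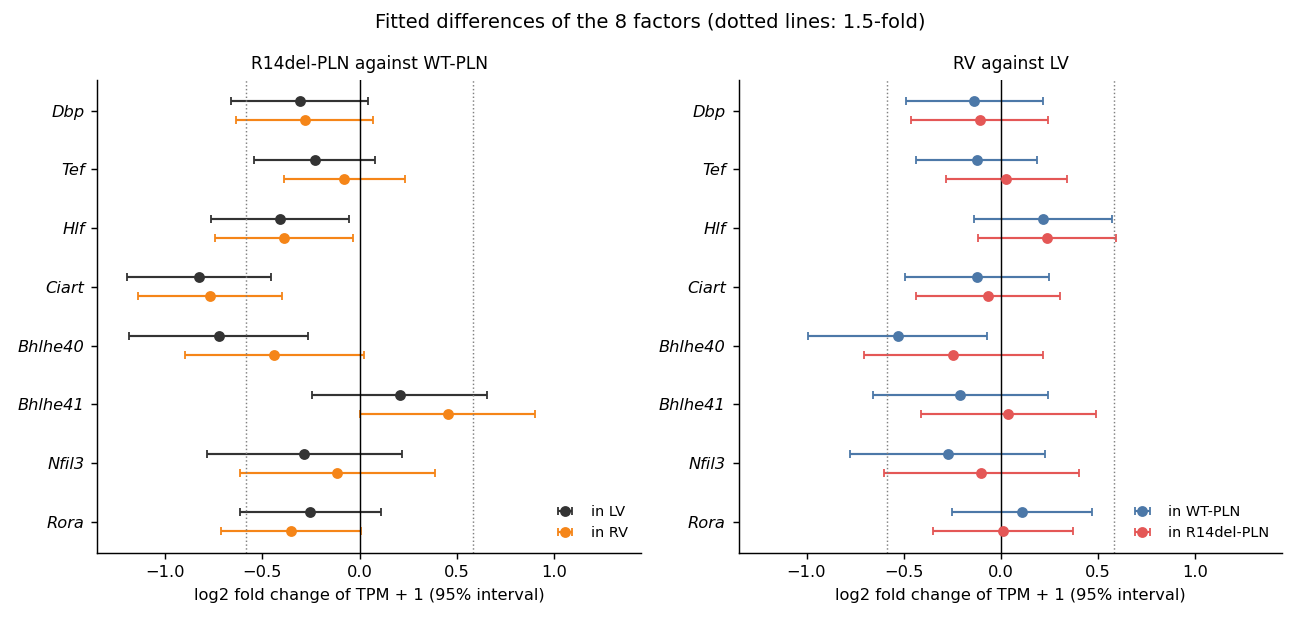
Log2 fold change of TPM + 1 with its 95% interval (x axis) for each of the 8 factors (y axis), R14del-PLN against WT-PLN in each ventricle on the left and RV against LV in each genotype on the right, with dotted lines at 1.5-fold. Ciart has the values farthest below 0 on the left, -0.83 in LV and -0.77 in RV, and on the right the interval of Bhlhe40 in WT-PLN, from -0.99 to -0.07, is the only one that excludes 0, while those of Bhlhe40, Bhlhe41, Nfil3 and Hlf reach past a dotted line.

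The second question was whether the ventricles differ. For Hlf, RV against LV gave a log2 fold change of 0.22 in WT-PLN and 0.24 in R14del-PLN (SE 0.16 each), and Hlf took 8.29% ± 0.437 (SD, n = 3) of the activator sum in RV of WT-PLN against 6.56% ± 0.559 in LV. Bhlhe40 gave -0.53 (SE 0.21) in WT-PLN, with an unadjusted limma p of 0.0267 and an adjusted p of 0.305, and -0.24 (SE 0.21) in R14del-PLN. By limma 0 of 8 members were called in either genotype, and so were 0% of all genes. At an unadjusted p under 0.05 there was 1 member in WT-PLN, Bhlhe40, where 14.5% of all genes passed, and 0 in R14del-PLN, where 6.57% did. The 8 members had a median of -0.13 in WT-PLN and -0.03 in R14del-PLN, beside -0.17 and -0.08 for all genes. The all-gene shift in WT-PLN came to 0.0050 after quantile normalization, and the signs of Dbp, Tef and Ciart in this comparison turned positive with it. In WT-PLN, LV and RV samples of the same number deviated together, and a fit with that number as a block called 12 genes in place of 0, none of them a member. In that fit Bhlhe40 had an unadjusted p of 0.00291 and a limma adjusted p of 0.148, and the next smallest member values were those of Nfil3, 0.0791 and 0.372. RV was below LV in each of the 3 same-numbered WT-PLN pairs for Tef, Bhlhe40, Bhlhe41 and Nfil3, as for 58.1% of all genes, and above LV in each pair for Rora, as for 3.93% of all genes.

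The third question, whether the genotype difference itself depended on the ventricle, was tested by the interaction term. None of the 8 members passed by limma (0% of all genes did), the smallest unadjusted member p was 0.357 for Bhlhe40, and 0 of 8 were under 0.05 against 1.01% of all genes. With the number as a block within genotype the member call count was again 0, and the smallest member p was 0.188, for Bhlhe40. That block also pairs the R14del-PLN samples by number, although there the number was not taken to pair them. For Ciart the difference of differences was 0.06 (SE 0.24, 95% interval -0.47 to 0.58), and for Bhlhe40 it was 0.29 (SE 0.30, -0.36 to 0.94).

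The factors were then set beside the rest of the clock, in lists built from known roles but chosen with earlier results of these data in view, so that their counts are descriptions. Of the 6 core loop genes that E-boxes drive (Per1, Per2, Per3, Cry2, Nr1d1 and Nr1d2), 1 was called lower in each ventricle (0.423% of all genes in LV and 0.2% in RV), and all 6 had negative values. Under quantile normalization and under upper quartile scaling 5 of the 6 were negative in LV. The called gene was Per1, a period repressor that glucocorticoids and cyclic AMP also induce. It measured 16.5, 22.5 and 22.7 TPM in LV of WT-PLN and 7.55, 6.92 and 10.1 TPM in LV of R14del-PLN, and 14.8, 20.2 and 17.3 against 8.30, 8.25 and 7.01 TPM in RV. No value of R14del-PLN reached those of WT-PLN. The log2 fold change was -1.23 (SE 0.17, adjusted p = 0.0044 by limma) in LV and -1.05 (SE 0.17, adjusted p = 0.0168) in RV. The LV call stood under all 23 alternatives, whereas the RV call was lost in 5 of 23, with no filter (adjusted p = 0.0794), without RV replicate 2 (0.118) or 3 (0.0923) of WT-PLN, and without RV replicate 3 (0.0957), the sample with another run number, or both samples numbered 3 (0.0561) of R14del-PLN. The median of the 6 was -0.51 in LV and -0.35 in RV.

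Of the 5 core genes with ROR and REV-ERB elements, 4 passed the filter and 0 were called by limma in either ventricle. In each ventricle 1 had an unadjusted p under 0.05, beside 9.6% of all genes in LV and 6.22% in RV. In both ventricles that gene was Arntl, which encodes BMAL1 and is a target of the REV-ERB repressors. Arntl was at 0.356 to 0.405 TPM in LV of WT-PLN and 0.520 to 0.867 TPM in LV of R14del-PLN, and at 0.296 to 0.408 against 0.591 to 0.781 TPM in RV. Its WT-PLN means, 0.373 TPM in LV and 0.340 in RV, lay below the 0.5 TPM filter, so it passed only through R14del-PLN. Its separation and its test are therefore given as descriptions. Every R14del-PLN value of Arntl was above every WT-PLN value of the same ventricle. In RV, 5.19% of all genes were apart in this direction. No such share is given for LV, so the LV separation of Arntl stands without a background. The log2 fold changes were 0.26 (SE 0.11, limma adjusted p = 0.468) in LV and 0.32 (SE 0.11, adjusted p = 0.547) in RV. On the log2(TPM + 1) scale these understate the change of so low a gene, and with a pseudocount of 0.1 they were 0.64 and 0.81, still not called. Clock, which encodes the partner of BMAL1, gave -0.04 in LV. The kinases and ubiquitin ligases that set the life of clock proteins had 0 of 5 tested genes called. At an unadjusted p under 0.05 there were 0 in LV and 1 in RV, beside 9.6% and 6.22% of all genes. The casein kinase genes Csnk1d and Csnk1e gave -0.31 and -0.30 in LV.

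**Figure D4:**
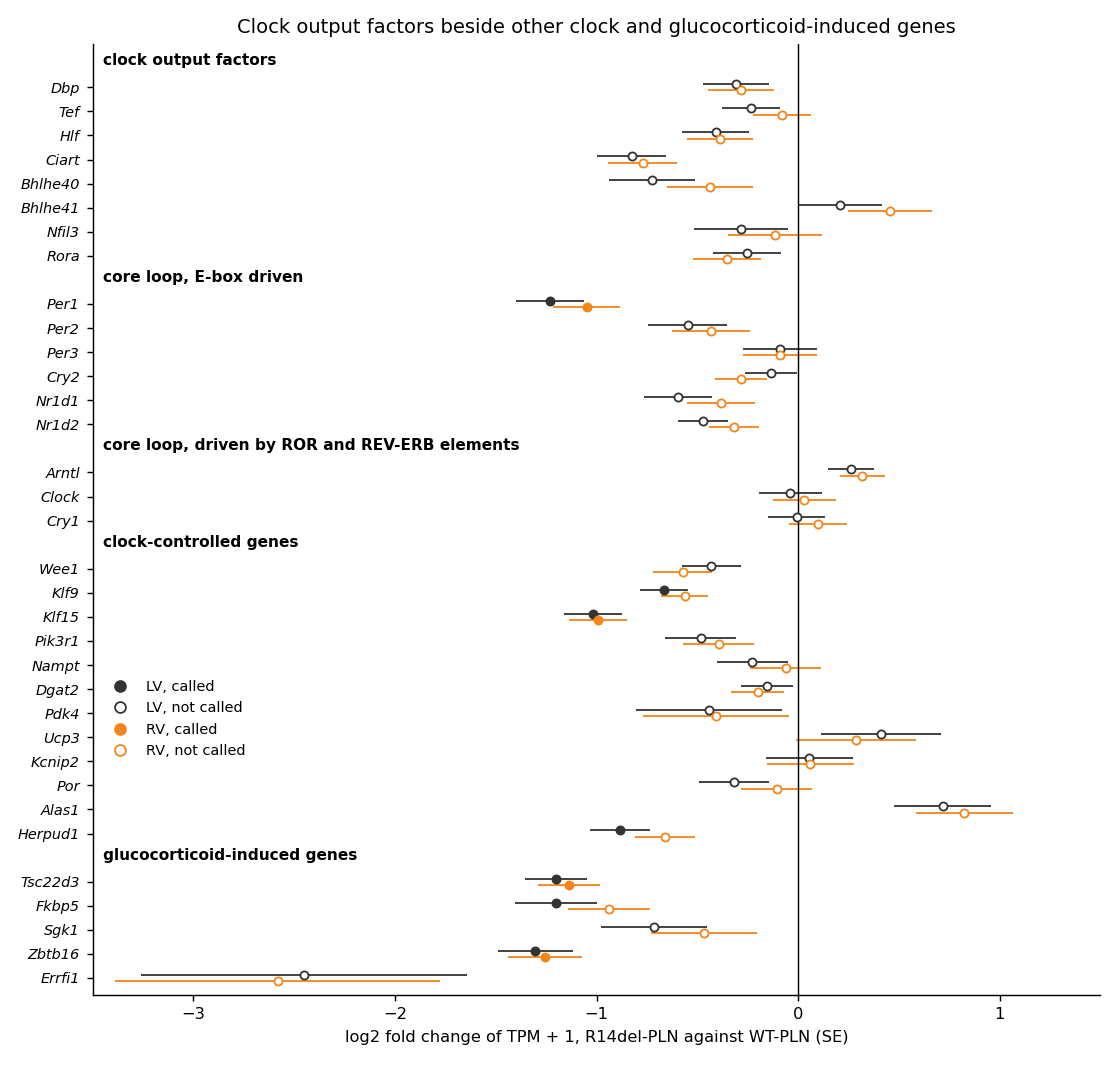
Log2 fold change of TPM + 1, R14del-PLN against WT-PLN, with its SE (x axis), for the clock output factors and genes of 4 lists (y axis), in LV (dark) and RV (orange), filled where the call was made. Per1, Klf15, Tsc22d3 and Zbtb16 are filled in both ventricles, the 8 output factors are open, and Arntl and Alas1 lie to the right of 0 in both.

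Of 12 genes known as clock-controlled, 3 were called lower in LV (0.423% of all genes) and 1 in RV (0.2%), and 0 were called higher. Negative values were seen for 9 of the 12 in each ventricle, beside 71.7% of all genes in LV and 50.9% in RV. Alas1 went the other way, with log2 fold changes of 0.72 in LV and 0.82 in RV (SE 0.24 each). Its limma adjusted p-values were 0.294 and 0.302. Ucp3 and Kcnip2 were also positive in both ventricles. Klf15, which governs lipid and amino acid use in the heart, stood at 30.4 ± 2.43 TPM (SD, n = 3) in LV of WT-PLN and 14.6 ± 2.31 in LV of R14del-PLN, and at 29.8 ± 1.89 against 14.6 ± 2.52 in RV. Its log2 fold changes of -1.02 and -0.99 (SE 0.14 each) had limma adjusted p-values of 0.0055 and 0.0085. Klf9, a Krüppel-like factor, gave -0.67 (SE 0.12, adjusted p = 0.0236) in LV and -0.56 (adjusted p = 0.0772) in RV, and Herpud1, which serves protein degradation at the endoplasmic reticulum, gave -0.88 (SE 0.15, adjusted p = 0.0191) and -0.66 (adjusted p = 0.111). Klf15 was called in LV under all 23 alternatives and in RV under 21, and the RV call was lost without replicate 2 of WT-PLN (adjusted p = 0.0636) or replicate 3 of R14del-PLN (0.0535). The LV call of Klf9 was kept in 16 of 23. It was lost under quantile normalization and upper quartile scaling, where its change was under 1.5-fold, with only the LV samples fitted (0.0945), and without LV replicate 2 (0.137) or 3 (0.111) of WT-PLN or LV replicate 1 (0.127) or 2 (0.136) of R14del-PLN. Leaving out these same LV samples also ended the call of Herpud1, with adjusted p-values of 0.109, 0.102, 0.117 and 0.0974, as did fitting with no filter (0.071). Klf9, Klf15 and Per1 are known to respond to glucocorticoids as well, so a list of 5 glucocorticoid-induced genes was read beside them. It had 3 called lower in LV and 2 in RV, against the same 0.423% and 0.2% of all genes, with medians of -1.20 and -1.14. Tsc22d3, which encodes the anti-inflammatory protein GILZ, gave -1.20 in LV and -1.14 in RV (SE 0.15 each). Zbtb16 gave -1.30 and -1.26 (SE 0.18 each), and Fkbp5, a co-chaperone of the glucocorticoid receptor, gave -1.20 in LV (adjusted p = 0.0191 by limma) and -0.94 in RV (adjusted p = 0.0944). Tsc22d3 was called in both ventricles under all 23 alternatives. Zbtb16 lost its RV call in 4 of 23, with no filter (0.0567) and without RV replicate 2 (0.0636) or 3 (0.0647) of WT-PLN or RV replicate 3 of R14del-PLN (0.0555). Fkbp5 lost its LV call in 5 of 23, with no filter (0.0936) and without LV replicate 2 (0.108) or 3 (0.0746) of WT-PLN or LV replicate 1 (0.117) or 2 (0.0683) of R14del-PLN. The part of this group in the values of the clock output factors was not tested.

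The immediate early genes respond within minutes to stimulation and to tissue handling. Of 8 on this list, limma called 0 in either ventricle. At an unadjusted p under 0.05 there were 7 in LV, where 9.6% of all genes passed, and 5 in RV, where 6.22% did, and all 8 had negative values in each ventricle. Summed, they reached 35.9 to 313 TPM in LV and 24 to 227 TPM in RV of WT-PLN, and 23.3 to 35.1 TPM and 18.9 to 24.3 TPM in R14del-PLN, so that the lowest WT-PLN sample was close to the highest R14del-PLN sample in each ventricle. Nr4a1, Egr1 and Fos, nuclear factors of this kind, gave log2 fold changes of -3.00, -2.68 and -2.20 in LV, with adjusted p-values of 0.235, 0.519 and 0.332. Bhlhe40 and Per1 can be induced by such stimuli too, and the part of tissue handling in their values was not tested.

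Of 32 marker genes of cardiac cell types, limma called 0 in any comparison. Between genotypes, 6 of the 32 in LV had an unadjusted p under 0.05, where 9.6% of all genes did. In RV there were 3, where 6.22% of all genes did. Summed atrial cardiomyocyte markers ranged from 207 to 1296 TPM in LV of WT-PLN and 145 to 319 TPM in LV of R14del-PLN, and from 86.3 to 871 against 45.6 to 521 TPM in RV. Haemoglobin genes of red cells summed to 1948 to 2151 against 1027 to 2001 TPM in LV and to 1358 to 1615 against 903 to 1304 TPM in RV. Smooth muscle and pericyte markers lay between 168 and 370 TPM in LV of WT-PLN and between 144 and 228 TPM in LV of R14del-PLN, and those of neutrophils between 0.367 and 11.7 against 0.247 and 0.813 TPM. In LV the summed fibroblast markers (274 to 490 against 229 to 356 TPM) overlapped between genotypes. So did the sums of endothelial markers (80.4 to 104 against 80.9 to 109 TPM) and macrophage markers (42.9 to 64.4 against 45.4 to 54.8 TPM). The haemoglobin sums overlapped between genotypes in LV but not in RV. No marker gene was at 0 throughout a group. The part of cell makeup in the members' values was not tested.

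Among themselves, the 8 factors varied together only in part. Correlations are over 12 samples that share genotype and, at least in WT-PLN, sample number, and are given as descriptions. Pearson's r of log2(TPM + 1) was 0.77 for Tef and Rora, 0.71 for Ciart and Bhlhe40, 0.65 for Dbp and Hlf and -0.11 for Dbp and Nfil3. With the group means taken out, Tef and Rora were at 0.82, Bhlhe40 and Rora at 0.79 and Dbp and Hlf at 0.71, whereas Ciart and Bhlhe40 fell to 0.21 and Dbp and Nfil3 went to -0.62. Ciart and Bhlhe40 thus went together mainly through their group means, and Dbp and Hlf also did so from sample to sample within groups. Of the other tested genes, the ones most like Dbp over the 12 samples were Mfap2 (r = 0.90), Panx1 (r = 0.90), Nr1d1 (r = 0.88), Syngr2 (r = 0.88) and Cdk5 (r = 0.88). Nr1d1 encodes REV-ERB alpha of the core loop and stood at 21.6 ± 3.08 TPM (SD, n = 3) in LV of WT-PLN and 13.9 ± 1.05 in LV of R14del-PLN. Those most like Nfil3 were Gm43540 (r = 0.96), Nkrf (r = 0.92), Gm3052 (r = 0.91) and Gm21596 (r = 0.90), beside a gene model listed only by a clone name (r = 0.91), and none of these belonged to the clock lists.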

How the data were processed

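Per the labels and the study's methods, poly(A) stranded libraries of mouse LV and RV were mapped to GRCm38 in CLC Genomics Workbench 20.0.2, and the authors deposited 1 table of TPM per sample. The program and annotation behind the TPM, and whether strand was used, are not given in the sources used here. Each table lists 33641 genes. TPM sum to a fixed total, so depth and counting error are unknown. Groups came from the labels, 3 samples in each of 4.

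Of these, 12526 averaged 0.5 TPM or more and were tested as log2(TPM + 1) by limma 3.58.1 (R 4.3.3) on 4 group means. Variances were moderated by empirical Bayes along the mean expression (5.15 prior beside 8 residual degrees of freedom), after a check on simulated data. Calls needed an adjusted p (Benjamini-Hochberg) no higher than 0.05 and, except for the interaction, a 1.5-fold change. Gene positions are from GENCODE M21 and promoters from RefSeq. The 8 members and all gene lists were chosen with earlier results of these data known. Named beside the members were the genes of each list called between genotypes, otherwise the 3 with the largest LV change, the 5 genes most correlated with Dbp and with Nfil3, and Pln. For marker lists the sums are given instead. The clock-controlled genes with positive values were named as well. Single genes of 2 lists are not reported here. Alternatives were other pseudocounts, filters, scalings, samples and a replicate block. Same-numbered LV and RV samples of WT-PLN deviated together (correlations of 0.657, 0.321 and 0.457), so the number was taken to pair them. In R14del-PLN (0.389, 0.230 and 0.0542) and between genotypes it was not.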

Additional observations from a re-analysis of the deposited data

How the results depend on the processing

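Over 936 recomputed member fold changes, 870 kept their sign and stayed uncalled, 11 became calls and 55 changed sign. The smallest limma adjusted p among the sign changes was 0.777. Of the genotype differences in LV, 0 of 184 changed sign. In LV, 1 member was called in place of 0 without mitochondrially encoded genes (Ciart), under upper quartile scaling (Ciart), under the replicate block (Bhlhe40), without both WT-PLN samples numbered 1 (Bhlhe40) and without both R14del-PLN samples numbered 3 (Ciart), and 0 to 1 when single samples were left out. In RV, 1 was called without mitochondrially encoded genes and under upper quartile scaling (Ciart in each), and 0 to 1 with single samples left out. Leaving out these pairs of samples with the same number was chosen after seeing the data.

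Calls over all genes in LV, 65 at first, were 22 with no filter, 104 after quantile normalization, 98 after upper quartile scaling, 119 under the replicate block, 231 without both WT-PLN samples numbered 1 and 19 to 153 with single samples left out, the highest without LV replicate 1 of WT-PLN. In RV, 34 at first, they were 17, 85, 91, 62 and 88 in that order, 72 without mitochondrially encoded genes and 14 to 48 with single samples left out. For RV against LV in WT-PLN, 0 became 1 with no filter, 2 without mitochondrially encoded genes, 1 under upper quartile scaling, 1 with only the 6 samples, 12 under the replicate block within genotype, 2 without both WT-PLN samples numbered 1 and 0 to 4 with single samples left out. In R14del-PLN the latter gave 0 to 1. The interaction had 2 calls with no filter and 0 to 1 with single samples left out. Between genotypes 4 of 6 LV samples and 5 of 6 RV samples correlated best with their own number, and the block made Bhlhe40 a call in LV (log2 fold change -0.73, adjusted p = 0.0287 by limma) and changed no other member's call.

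All sign changes were of values near 0. For R14del-PLN against WT-PLN in RV, Tef came to 0.0305 without both R14del-PLN samples numbered 3. For RV against LV in WT-PLN, quantile normalization gave 0.0645 for Dbp, 0.0749 for Tef and 0.0694 for Ciart, upper quartile scaling 0.0434, 0.0552 and 0.0444, and leaving out mitochondrially encoded genes 0.0115 for Tef and 0.00472 for Ciart. In R14del-PLN, quantile normalization gave 0.0175 for Dbp and 0.0204 for Ciart, leaving out mitochondrially encoded genes 0.052 for Dbp, 0.0835 for Ciart and 0.0401 for Nfil3, and leaving out both samples numbered 3 0.0436, 0.115 and 0.0395. For the interaction, quantile normalization gave -0.0469 for Dbp, -0.0766 for Hlf and -0.049 for Ciart, upper quartile scaling -0.0799, -0.0779 and -0.0456, leaving out both WT-PLN samples numbered 1 -0.0185 for Ciart, and leaving out both R14del-PLN samples numbered 3 0.118 for Rora. With single samples left out, the genotype difference in RV ran from -0.169 to 0.0305 for Tef and -0.284 to 0.0935 for Nfil3, and RV against LV in WT-PLN from -0.0171 to 0.225 for Rora. RV against LV in R14del-PLN ran from -0.0622 to 0.138 for Tef, -0.272 to 0.0984 for Ciart, -0.148 to 0.137 for Bhlhe41, -0.24 to 0.0662 for Nfil3 and -0.0947 to 0.124 for Rora. The interaction ran from -0.108 to 0.158 for Dbp, -0.12 to 0.122 for Hlf, -0.15 to 0.22 for Ciart, -0.0413 to 0.379 for Nfil3 and -0.213 to 0.0283 for Rora. The causes were not tested.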

Other observations

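The genes most like Ciart over the 12 samples, looked up after its values were seen, were Klf9 (Pearson's r of log2(TPM + 1) = 0.94), Sesn1 (0.94), Bcl2l1 (0.94), Zbtb16 (0.94) and Fam107a (0.93). Klf9 and Zbtb16 belong to the clock-controlled and glucocorticoid-induced lists. Those most like Hlf were Pcp4l1 (r = 0.92), Vwf (r = 0.90), which encodes von Willebrand factor of endothelial cells, and Fbln1 (r = 0.89), which encodes a protein of the extracellular matrix. For Bhlhe41 they were Fam217b (r = 0.97), Frmd6 (r = 0.94) and Ahdc1 (r = 0.94). These correlations describe samples that share genotype and sample number, and no test was made on them.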
